A study of Saccharomyces cerevisiae with 12 samples.

Results

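Translesion polymerases copy past damaged bases that stop the replicative polymerases, and the budding yeast genome encodes Polη (*RAD30*), Rev1 (*REV1*) and Polζ (*REV3* and *REV7*). These enzymes are recruited by PCNA (*POL30*), the ring-shaped sliding clamp. The 10 genes described here are these 4 genes with *POL30* and the 5 genes whose products attach ubiquitin to PCNA, *RAD6*, *RAD18*, *RAD5*, *MMS2* and *UBC13*. They were chosen by name, as YDR419W (*RAD30*), YOR346W (*REV1*), YPL167C (*REV3*), YIL139C (*REV7*), YBR088C (*POL30*), YGL058W (*RAD6*), YCR066W (*RAD18*), YLR032W (*RAD5*), YGL087C (*MMS2*) and YDR092W (*UBC13*), and are 10 of the 7123 genes in the count table. Reads of polyadenylated RNA were counted in *rad30Δ* and WT cells, which are W303 derivatives that the labels tell apart by the deletion of *RAD30*, made by replacing the gene with a marker for antibiotic resistance. Which of the study's listed strains gave the RNA is not named. There were 4 groups of 3 libraries: *rad30Δ* cells after DSB induction, *rad30Δ* cells in G2/M arrest, WT cells after DSB induction and WT cells in G2/M arrest. All cells grew in rich medium with 2% raffinose and were held in G2/M with 80 µg/ml benomyl for 3 hours, and in the groups after DSB induction, DNA double-strand breaks (DSBs) were then made for 1 hour with 2% galactose, which switches on the HO endonuclease in both strains. Whether the 3 libraries of a group came from separate cultures is not stated, and the tests cover only how far these libraries vary, which may be technical.

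When PCNA meets a stalled fork, Rad6 and its partner Rad18 are known to attach a single ubiquitin to it, which favours the translesion polymerases. Rad5, with the paired conjugating enzymes Mms2 and Ubc13, can lengthen this mark into a chain, which favours an error-free route through the sister chromatid. *rad30Δ* cells lack the polymerase known for accurate bypass of ultraviolet-induced thymine dimers.

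Apart from the deleted *RAD30*, *UBC13* is the one of these genes whose transcripts differed between groups by the test used below. *POL30* had the largest estimated difference between the strains in its change after DSB induction, a difference that did not pass the test used below. Upstream sequences of both are shown with that of *RAD5*, because *POL30* and *RAD5* are the members with an MCB core (ACGCGT, the site bound by the G1/S transcription factor MBF, which reads the same on both strands) in this window. Each sequence holds the 200 bases that begin 300 bases upstream of the start codon, 5′ to 3′ along the gene's strand, in the R64 assembly that sacCer3 names, as given by RefSeq. Capitals mark the MCB core.
UBC13 (chrIV:629576-629775, plus strand): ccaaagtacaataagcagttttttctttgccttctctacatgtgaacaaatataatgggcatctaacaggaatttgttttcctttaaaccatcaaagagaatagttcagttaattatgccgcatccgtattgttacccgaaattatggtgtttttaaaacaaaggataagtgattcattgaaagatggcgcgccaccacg
POL30 (chrII:425867-426066, minus strand): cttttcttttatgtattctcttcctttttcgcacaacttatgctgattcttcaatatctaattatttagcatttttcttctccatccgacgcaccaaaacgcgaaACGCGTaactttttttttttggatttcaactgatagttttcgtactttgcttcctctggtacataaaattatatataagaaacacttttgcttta
RAD5 (chrXII:204691-204890, plus strand): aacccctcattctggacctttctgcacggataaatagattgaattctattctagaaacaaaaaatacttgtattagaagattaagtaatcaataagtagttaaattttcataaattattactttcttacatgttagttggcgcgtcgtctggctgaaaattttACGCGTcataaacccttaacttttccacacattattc
The MCB core lay 195 to 190 bases upstream of *POL30* and 137 to 132 bases upstream of *RAD5*, and was found in the windows of 2 of the 10 genes, against 2.92% of the 6001 windows of this length before nuclear protein-coding genes. A Gal4 site (CGGNNNNNNNNNNNCCG, both strands) was in 0 of the 10 windows and in 1.23% of all windows. The stress response element (AGGGG, both strands) was in 3 of them, those of *REV3*, *REV7* and *RAD5*, and in 16.26% of all windows. The *UBC13* window held none of these motifs.

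Library totals were 5442935 to 7289514 reads, and values are given as CPM, counts scaled to the TMM-corrected library size. The scaling factor was 0.873 in *rad30Δ* replicate 3 after DSB induction and 0.971 to 1.05 in the other 11 libraries, so this library stands apart. Test results of *POL30* and *UBC13* in the comparisons that hold this library are given without it too. No other member changed its call when this library was left out, and their values are given only with it. Values and counts of all other genes are given only with it. The mating-type receptor gene *STE2* had 13.4 to 19.9 CPM in the 6 *rad30Δ* libraries and 376 to 596 CPM in the 6 WT libraries, while *STE3* had 82.1 to 663 CPM in *rad30Δ* and 4.72 to 12.5 CPM in WT libraries. *STE2* marks **a** cells and *STE3* marks α cells, so the strains differed in mating type besides *RAD30*. In the strain differences below, the deletion and the mating type cannot be told apart. HO had 3693 to 4694 CPM in *rad30Δ* cells after DSB induction and 35.7 to 40.0 CPM in arrested *rad30Δ* cells, and it had 4335 to 4761 CPM in WT cells after DSB induction and 36.7 to 42.8 CPM in arrested WT cells. *SMC1*, a cohesin gene, was also higher after galactose, at 3474 to 4289 CPM against 147 to 165 CPM in *rad30Δ* cells and at 5370 to 5730 CPM against 168 to 190 CPM in WT cells. Some of the study's listed strains, with and without *RAD30*, carry a further *SMC1* copy under a galactose-driven promoter. These strains also have a temperature-sensitive *smc1* allele. What share of the *SMC1* reads came from such a copy was not tested. No library had galactose without HO, so the break, the sugar and the induced genes cannot be told apart either.

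*RAD30* (chromosome IV, 1303174 to 1305072, plus strand, a single coding exon) encodes Polη. It had 0 reads in each of the 3 *rad30Δ* libraries after DSB induction and 0 in each of the 3 in G2/M arrest. The WT libraries had 240, 249 and 229 reads after DSB induction and 293, 350 and 306 reads in G2/M arrest. A count of 0 is compatible with up to 3 reads in a library. At that limit *rad30Δ* cells had at least 72.0-fold lower *RAD30* transcript than WT cells after DSB induction, and at least 98.5-fold lower in G2/M arrest, bounds that cover counting error only. The counts follow the labels, and *RAD30* enters no strain comparison, so these count 9 genes. All 10 genes passed the filter of at least 10 reads over the 12 libraries, *RAD30* through its WT libraries alone. In WT cells *RAD30* had 41.4, 46.1 and 38.6 CPM after DSB induction and 40.4, 52.4 and 47.1 CPM in G2/M arrest. These groups overlap, and the log2 fold change was -0.15 ± 0.13 (SE), with an adjusted p of 0.491 by edgeR's quasi-likelihood test. The genes beside it on the chromosome, *RPL12B* and *HKR1*, did not pass this test between the strains in either state, although DESeq2 called 3 of all 20 adjoining genes higher and 1 lower after DSB induction. They had log2 fold changes of -0.07 and 0.26 after DSB induction and 0.18 and 0.22 in G2/M arrest.

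**Figure D1:**
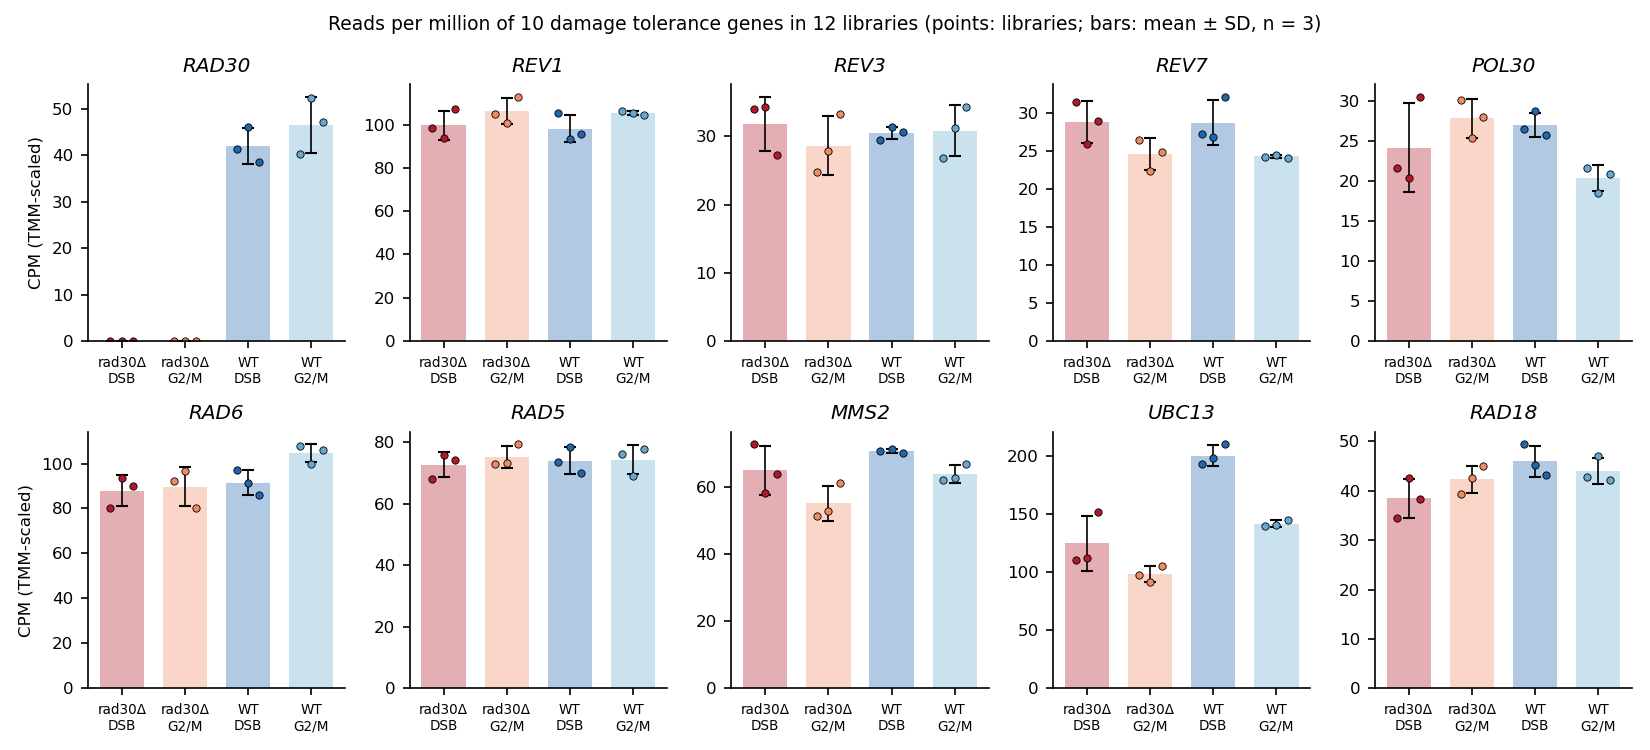
CPM of the 10 genes (vertical axes, each from 0) in the 12 libraries, with groups along the horizontal axes. Points are libraries and bars are means with SD (n = 3); *RAD30* is at 0 in the 6 *rad30Δ* libraries, and *UBC13* averages 125 and 98.2 CPM in *rad30Δ* and 200 and 142 CPM in WT libraries.

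*REV1*, *REV3* and *REV7* passed the test in no comparison. *REV1* (chromosome XV, 981828 to 984785) encodes a deoxycytidyl transferase that also holds other translesion polymerases. It had 98.3, 93.8 and 107 CPM in *rad30Δ* cells after DSB induction and 105, 101 and 113 CPM in arrested *rad30Δ* cells. WT cells had 105, 93.6 and 95.5 CPM after DSB induction and 106, 105 and 104 CPM in arrest. All groups overlap in both strain comparisons, with log2 fold changes of 0.02 (95% interval -0.13 to 0.17) after DSB induction and 0.01 (-0.14 to 0.16) in G2/M arrest. *REV3* (chromosome XVI, 232593 to 237107, minus strand) encodes the catalytic subunit of Polζ. It had 34.0, 34.2 and 27.3 CPM in *rad30Δ* cells and 29.5, 31.3 and 30.7 CPM in WT cells after DSB induction. In G2/M arrest it had 24.8, 27.9 and 33.3 CPM in *rad30Δ* cells and 26.9, 31.3 and 34.3 CPM in WT cells. Its intervals were -0.22 to 0.35 after DSB induction and -0.38 to 0.18 in arrest, so a level in *rad30Δ* cells up to 1.28-fold that of WT cells after DSB induction, or down to 0.767-fold in arrest, could not be told from no difference.

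*REV7* (chromosome IX, 87979 to 88716, minus strand) encodes the accessory subunit of Polζ. It had 31.4, 25.9 and 29.0 CPM in *rad30Δ* cells after DSB induction and 26.5, 22.5 and 24.9 CPM in arrested *rad30Δ* cells. WT cells had 27.2, 26.9 and 32.2 CPM after DSB induction and 24.3, 24.5 and 24.2 CPM in arrest. The WT libraries after DSB induction all lie above the arrested ones, whereas the *rad30Δ* groups overlap. Its log2 fold change after DSB induction was 0.23 ± 0.11 (SE) in *rad30Δ* and 0.24 ± 0.11 (SE) in WT cells, and neither passed the test, with adjusted p-values of 0.241 and 0.163.

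*POL30* (chromosome II, 424990 to 425766, minus strand) encodes PCNA. In *rad30Δ* cells it had 21.6, 20.4 and 30.6 CPM after DSB induction and 30.1, 25.4 and 28.0 CPM in G2/M arrest. In WT cells it had 26.6, 28.7 and 25.8 CPM after DSB induction and 21.6, 18.6 and 20.9 CPM in arrest. Each arrested *rad30Δ* library was above each arrested WT library, and the WT libraries after DSB induction all lay above the arrested WT libraries. The *rad30Δ* libraries before and after DSB induction overlap, since replicate 3 was the highest of its 6 libraries. None of these differences passed the test. Between the arrested strains the log2 fold change was 0.45 ± 0.14 (SE, adjusted p = 0.0653). DESeq2 gave an adjusted p of 0.0394, and edgeR gave 0.0412 or 0.00920 without *rad30Δ* replicate 2 or 3 after DSB induction, libraries that enter this comparison only through the fit over all 12. After DSB induction it was -0.21 ± 0.14 in *rad30Δ* and 0.41 ± 0.14 in WT cells (SE, adjusted p = 0.407 and 0.0845). The *rad30Δ* change minus the WT change (the interaction) was -0.62 (95% interval -1.06 to -0.18), with an unadjusted p of 0.00964 and an adjusted p of 0.221. Without *rad30Δ* replicate 3 after DSB induction it was -0.81 (adjusted p = 0.0260), the change in *rad30Δ* cells was -0.40 (adjusted p = 0.0474) and the strain difference after DSB induction was -0.36 (adjusted p = 0.0357), against -0.17 (adjusted p = 0.436) with that library. The change in WT cells was then 0.40 (adjusted p = 0.0167). Between the arrested strains *POL30* also passed with library totals (adjusted p = 0.0455), and with the compared libraries alone it passed there (adjusted p = 0.0223) and in WT cells (adjusted p = 0.0116). *POL30* had 124 to 191 reads per library. The count table lists YBR089W at 0 reads in all 12 libraries, an entry that the R64 annotation used here does not hold and that is known as a dubious reading frame across *POL30* on the opposite strand. How reads covering both were assigned was not tested.

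In both states *rad30Δ* cells had fewer *UBC13* transcripts than WT cells. These were higher after DSB induction in both strains, a rise that passed the test in WT but not in *rad30Δ* cells. The difference between the strains' changes did not pass. *UBC13* (chromosome IV, 629876 to 630605, plus strand, 2 coding exons) encodes the ubiquitin-conjugating enzyme that builds chains linked through lysine 63, acting with Mms2. It had 110, 112 and 151 CPM in *rad30Δ* cells after DSB induction and 97.8, 91.3 and 105 CPM in arrested *rad30Δ* cells. WT cells had 193, 198 and 210 CPM after DSB induction and 139, 140 and 145 CPM in G2/M arrest. The 3 *rad30Δ* libraries lie below the 3 WT libraries in each state, and within each strain the libraries after DSB induction lie above the arrested ones. After DSB induction *UBC13* was at 0.621 of the WT level in *rad30Δ* cells, a log2 fold change of -0.69 ± 0.11 (SE, adjusted p = 0.000704). In G2/M arrest it was at 0.694 of the WT level, a log2 fold change of -0.53 ± 0.11 (SE, adjusted p = 0.00698). Without *rad30Δ* replicate 3, the highest of its group, the difference after DSB induction was -0.85 (adjusted p = 5.47e-06). Over all alternatives the strain difference stayed between -0.85 and -0.61 after DSB induction and between -0.58 and -0.48 in arrest, and it passed the test each time.

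In WT cells *UBC13* rose 1.41-fold after DSB induction, a log2 fold change of 0.50 ± 0.11 (SE, adjusted p = 0.00992). Without WT replicate 3 after DSB induction it was 0.46 and did not pass (adjusted p = 0.0519). In *rad30Δ* cells the log2 fold change was 0.34 ± 0.11 (SE), which did not pass the test (adjusted p = 0.0863). With the replicate number as a block it was 0.33 (adjusted p = 0.0312), and DESeq2 gave 0.35 (adjusted p = 0.0432). This value depends on *rad30Δ* replicate 3 after DSB induction, without which it was 0.18 (adjusted p = 0.134), while it was 0.42 (adjusted p = 0.0378) without replicate 1 and 0.41 (adjusted p = 0.0288) without replicate 2 of that group. The difference between the strains' changes was -0.16 (95% interval -0.49 to 0.17, adjusted p = 0.684). It was -0.32 (adjusted p = 0.0819) without *rad30Δ* replicate 3 after DSB induction and -0.08 without replicate 1 or 2 of that group (adjusted p = 0.846 and 0.824), and so did not pass in any of these fits. The genes on either side of *UBC13* had values of the other sign after DSB induction, and neither passed between the strains by edgeR. *RLI1*, an ATPase of ribosome recycling, had a log2 fold change between the strains of 0.53 (adjusted p = 0.0580) after DSB induction and -0.03 (adjusted p = 0.942) in arrest. *DNF2*, a lipid flippase, had 0.23 (adjusted p = 0.0504) and 0.08 (adjusted p = 0.626) in the same comparisons, and fell in WT cells after DSB induction with -0.34 (adjusted p = 0.0170).

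Of 5432 other genes averaging 10 CPM or more, the 2 whose log2 CPM over the 12 libraries was most like that of *UBC13* were *YPI1* (Pearson r = 0.988), a regulator of protein phosphatase 1, and *RDH54* (r = 0.969), a DNA translocase of recombination related to Rad54. These correlations describe libraries of 4 groups and share the group differences and the library scaling. *YPI1* averaged 70.1 ± 9.30 CPM in *rad30Δ* cells after DSB induction and 55.0 ± 4.27 CPM in arrested *rad30Δ* cells. In WT cells it averaged 103 ± 3.68 CPM after DSB induction and 76.4 ± 2.76 CPM in arrest (SD, n = 3). *RDH54* averaged 191 ± 34.8 and 161 ± 13.8 CPM in *rad30Δ* cells after DSB induction and in arrest, and 252 ± 3.73 and 198 ± 6.79 CPM in WT cells in the same states (SD, n = 3).

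*MMS2* and *RAD6* were next to *UBC13* in level per kb, and their differences were smaller. *MMS2* (chromosome VII, 346406 to 346904, minus strand, 2 coding exons) encodes the partner of Ubc13 that lacks a catalytic cysteine. It had 72.7, 58.2 and 63.9 CPM in *rad30Δ* and 70.5, 71.3 and 69.9 CPM in WT cells after DSB induction, and 51.1, 52.9 and 61.0 CPM in *rad30Δ* and 62.0, 62.5 and 66.8 CPM in WT cells in arrest. The arrested *rad30Δ* libraries all lie below the arrested WT libraries, but the log2 fold change of -0.21 ± 0.09 (SE) did not pass the test (adjusted p = 0.162). After DSB induction its log2 fold change was 0.24 ± 0.09 in *rad30Δ* and 0.15 ± 0.09 in WT cells (SE, adjusted p = 0.135 and 0.293), and the *rad30Δ* value was 0.33 (adjusted p = 0.0439) without replicate 2 after DSB induction. *RAD6* (chromosome VII, 393986 to 394504) encodes the conjugating enzyme that places the first ubiquitin on PCNA and also modifies histone H2B. It had 80.4, 93.7 and 89.9 CPM in *rad30Δ* and 97.3, 91.2 and 86.1 CPM in WT cells after DSB induction, and 92.0, 96.8 and 80.1 CPM in *rad30Δ* and 108, 99.9 and 106 CPM in WT cells in arrest. Arrested WT libraries were above the arrested *rad30Δ* libraries and above the WT libraries after DSB induction, with log2 fold changes of -0.22 ± 0.08 between the arrested strains and -0.19 ± 0.08 after DSB induction in WT cells (SE, adjusted p = 0.117 and 0.150), which did not pass.

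The ligases that pick PCNA as the target passed in no comparison. *RAD18* (chromosome III, 231500 to 232963) encodes the partner of Rad6, and lies 30.5 kb from the *MAT* genes, where HO cuts. It had 34.6, 42.5 and 38.4 CPM in *rad30Δ* and 49.5, 45.2 and 43.3 CPM in WT cells after DSB induction, and 39.5, 42.6 and 45.0 CPM in *rad30Δ* and 42.7, 47.0 and 42.2 CPM in WT cells in arrest. After DSB induction its *rad30Δ* libraries all lie below the WT libraries, with a log2 fold change of -0.26 ± 0.09 (SE, adjusted p = 0.0675) that did not pass. Without *rad30Δ* replicate 2 it was -0.33 (adjusted p = 0.0342). *RAD5* (chromosome XII, 204991 to 208500) encodes a ligase and DNA translocase, and both strains carry the functional *RAD5* allele that standard W303 lacks. It had 68.2, 76.0 and 74.2 CPM in *rad30Δ* and 73.6, 78.6 and 69.9 CPM in WT cells after DSB induction, and 73.1, 73.3 and 79.5 CPM in *rad30Δ* and 76.3, 69.0 and 77.7 CPM in WT cells in arrest. All its groups overlap, and its intervals between the strains were -0.19 to 0.13 after DSB induction and -0.14 to 0.17 in arrest.

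**Figure D2:**
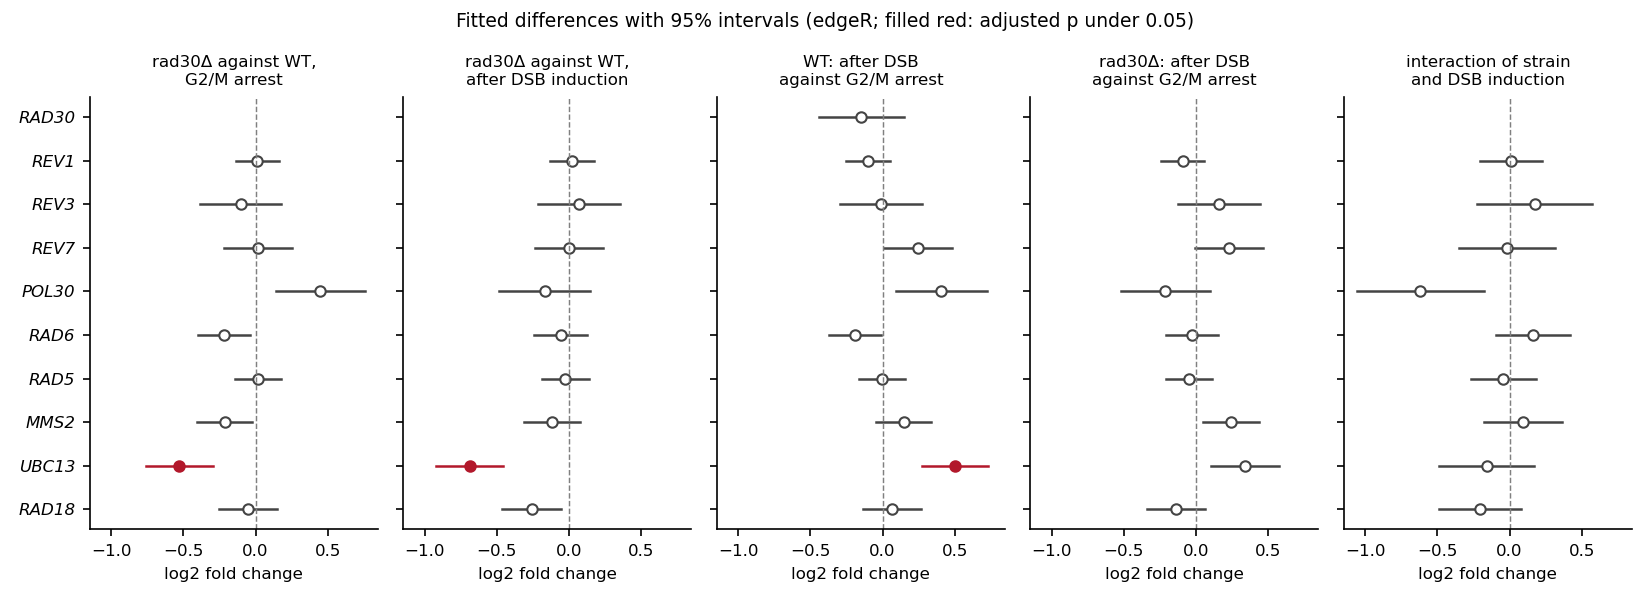
Log2 fold changes (horizontal axes) of the members with 95% intervals (lines) in 5 comparisons. Filled red points passed the test, which *UBC13* did between the strains (-0.53 in arrest and -0.69 after DSB induction) and after DSB induction in WT cells (0.50); open points did not pass, and *RAD30* is drawn where it was tested.

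Counted over the members, 0 of 9 were higher and 1 of 9 lower in *rad30Δ* than in WT cells after DSB induction, where 11.6% and 11.8% of the 6490 genes tested were higher and lower. At an unadjusted p under 0.05, 0 were higher and 2 lower, and DESeq2 called 0 higher and 1 lower. In G2/M arrest 0 of 9 were higher and 1 of 9 lower, against 4.71% and 6.10% of all genes, with 1 higher and 3 lower at an unadjusted p under 0.05 and 1 higher and 1 lower by DESeq2. After DSB induction 0 of 9 were higher and 0 of 9 lower in *rad30Δ* cells, against 3.68% and 2.65% of all genes, with 2 of 9 higher and 0 of 9 lower at an unadjusted p under 0.05 and 1 higher and 0 lower by DESeq2. In WT cells 1 of 10 was higher and 0 of 10 lower after DSB induction, against 6.07% and 6.29% of all genes, with 3 higher and 1 lower at an unadjusted p under 0.05 and 1 higher and 0 lower by DESeq2. In the interaction 0 of 9 passed, against 0.0616% of all genes, with 1 at an unadjusted p under 0.05 and 0 by DESeq2. With 9 or 10 genes, counts of 0 or 1 are near the background. All these percentages are for edgeR's adjusted p. The shares of all genes at an unadjusted p under 0.05 and by DESeq2 were not counted. Counts at those thresholds, here and for the other lists, therefore have no background and are not results about the genes. The members' median log2 fold change between the strains was -0.06 after DSB induction and -0.05 in arrest, and after DSB induction it was -0.03 in *rad30Δ* and 0.03 in WT cells, where the median of all genes tested was 0.00 in each.

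Per kb of gene length, the conjugating enzymes had the most reads and the catalytic subunit of Polζ the fewest in all 4 groups. *UBC13* had 270 ± 50.5 CPM per kb in *rad30Δ* cells after DSB induction and 213 ± 15.4 in arrested *rad30Δ* cells (SD, n = 3). In WT cells it had 433 ± 19.5 CPM per kb after DSB induction and 306 ± 6.85 in arrest (SD, n = 3). *RAD6* and *MMS2* followed, at 133 to 202 CPM per kb in the group means, and their ranges over libraries overlapped after DSB induction in both strains but not in arrest. *REV7*, *REV1*, *POL30* and *RAD18* lay between 26.2 and 39.0 CPM per kb, in an order that changed between groups and their ranges overlapped between neighbours in each group but arrested WT cells, where *REV1*, *REV7*, *RAD18* and *POL30* were apart in that order. *RAD30* had 22.1 CPM per kb in WT cells after DSB induction and 24.5 in arrested WT cells, and overlapped *RAD5*, which had 20.7 to 21.5 in the 4 groups. *REV3* was lowest, at 6.35 to 7.05 CPM per kb, and was apart from its neighbour in each group. Of the 34 pairs of neighbours in these orders, 20 had ranges that did not overlap.

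**Figure D3:**
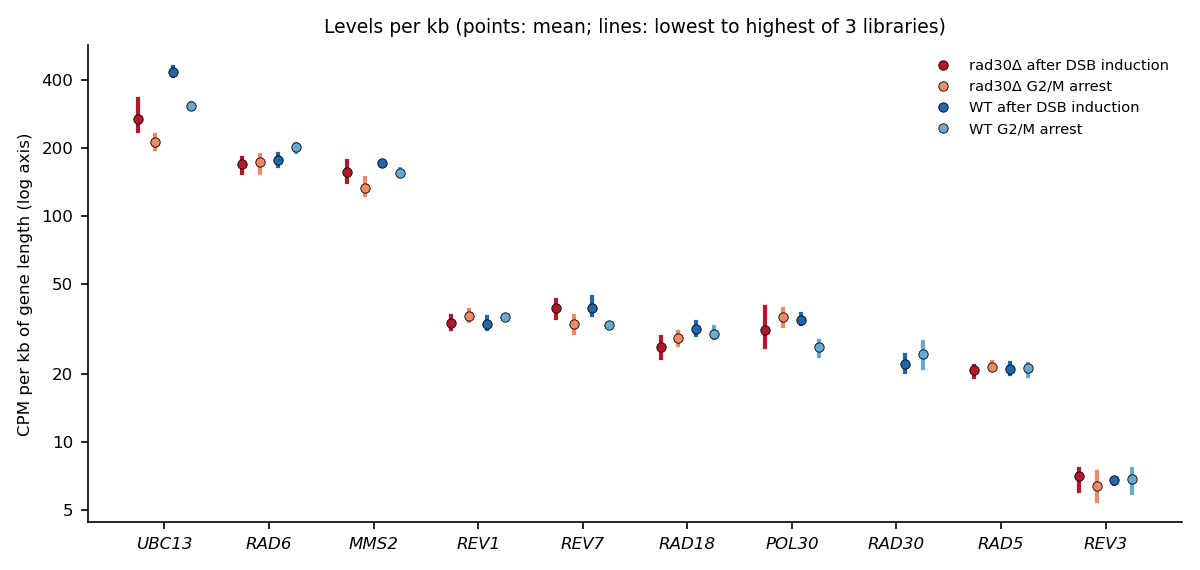
CPM per kb of gene length (vertical log axis) for the members along the horizontal axis, ordered by level in arrested WT cells. Points are group means and lines run between the lowest and the highest of 3 libraries; *UBC13* spans 213 to 433 and *REV3* 6.35 to 7.05 in the group means, and *RAD30* is drawn for WT cells alone.

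A list of 11 genes held those that supply ubiquitin, remove it from PCNA or work with Rad6 elsewhere. Of these, 0 were higher and 5 lower in *rad30Δ* than in WT cells after DSB induction by edgeR and by DESeq2, where 11.8% of all genes tested were lower, and the list's median log2 fold change was -0.27. In G2/M arrest 0 were higher and 2 lower by both tools, against 6.10% of all genes lower, with a median of -0.12. At an unadjusted p under 0.05, 0 were higher in either state. *UBA1*, the ubiquitin-activating enzyme, had 374 ± 68.5 CPM in *rad30Δ* and 490 ± 0.956 CPM in WT cells after DSB induction, and 317 ± 18.5 CPM in *rad30Δ* and 495 ± 14.6 CPM in WT cells in arrest (SD, n = 3). Its libraries do not overlap between the strains in either state, with log2 fold changes of -0.39 ± 0.11 and -0.64 ± 0.11 (SE, adjusted p = 0.0215 and 0.00198). *UBI4*, the polyubiquitin gene, had log2 fold changes of -0.38 after DSB induction (adjusted p = 0.000722) and -0.26 in arrest (adjusted p = 0.0160). The Rad6 partners *UBR1*, ligase of the N-degron pathway, and *BRE1*, ligase for histone H2B, were also lower in *rad30Δ* cells than in WT cells after DSB induction, with log2 fold changes of -0.56 and -0.35 (adjusted p = 0.00129 and 0.00855). The fifth was *UBP12*, a deubiquitinating enzyme (-0.29, adjusted p = 0.0253). The other ubiquitin genes, *RPL40A*, *RPL40B* and *RPS31*, encode ubiquitin fused to ribosomal proteins and did not pass, with log2 fold changes of 0.05, 0.17 and 0.14 after DSB induction and 0.12, 0.07 and 0.10 in arrest. These and *UBP12* were named after their values were seen. In WT cells 2 of the 11 rose after DSB induction and 1 fell, against 6.07% and 6.29% of all genes. *UBI4* rose by 0.31 (adjusted p = 0.00635) and *UBR1* by 0.32 (adjusted p = 0.0461), while *UBP10*, which removes ubiquitin from PCNA, fell by 0.29 (adjusted p = 0.0310), each on the log2 scale. In *rad30Δ* cells 0 of the 11 passed by edgeR after DSB induction, against 3.68% higher and 2.65% lower of all genes. At an unadjusted p under 0.05, 2 were higher and 2 lower, and DESeq2 called 1 higher.

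Among 10 genes of PCNA sumoylation, with *SRS2* and *MGS1*, 3 were lower and 0 higher in *rad30Δ* than in WT cells after DSB induction, where 11.8% and 11.6% of all genes were lower and higher. DESeq2 called 2 lower and 0 higher, and 0 were higher at an unadjusted p under 0.05. *SRS2*, the helicase recruited by sumoylated PCNA, had 128 ± 7.26 CPM in *rad30Δ* and 161 ± 1.25 CPM in WT cells, and *MGS1*, an ATPase that binds ubiquitylated PCNA, had 46.0 ± 2.09 and 58.7 ± 5.38 CPM in the same strains (SD, n = 3, adjusted p = 0.00790 and 0.00663). The SUMO ligase gene *SIZ2* was lower in both states, with log2 fold changes of -0.34 after DSB induction (adjusted p = 0.0482, and 0.0618 by DESeq2) and -0.41 in arrest (adjusted p = 0.0338). It was the one gene of this list that passed in arrest, where 6.10% of all genes were lower. After DSB induction 0 of the 10 passed by edgeR or DESeq2 in either strain, with 0 in *rad30Δ* and 1 in WT cells at an unadjusted p under 0.05. Of all genes 3.68% were higher and 2.65% lower by edgeR in *rad30Δ* cells, and 6.07% and 6.29% in WT cells. Of 10 clamp loader genes, *RFC1*, the large subunit of the loader of PCNA, had 81.4 ± 13.2 CPM in *rad30Δ* and 56.4 ± 1.62 CPM in WT cells after DSB induction (SD, n = 3), a log2 fold change of 0.53 (adjusted p = 0.0112). It fell by 0.48 on the log2 scale in WT cells after DSB induction (adjusted p = 0.0306). *RFC3* was lower in *rad30Δ* cells after DSB induction (-0.19, adjusted p = 0.0450) but did not pass by DESeq2 (adjusted p = 0.0555). In arrest 0 of the 10 passed by edgeR or DESeq2, against 4.71% higher and 6.10% lower of all genes by edgeR, and 1 was lower at an unadjusted p under 0.05. The 1 higher and 1 lower of these 10 between the strains after DSB induction are near the 11.6% and 11.8% of all genes. In WT cells 1 of the 10 fell, against 6.29%. A list of 12 genes held those for replicative polymerases and the subunits they share with Polζ, together with *POL4*. Of these, *POL1*, the catalytic subunit of Polα, was higher in *rad30Δ* cells in both states, with log2 fold changes of 0.30 after DSB induction (adjusted p = 0.00874) and 0.27 in arrest (adjusted p = 0.0243). *DPB3*, a small subunit of Polε, was lower after DSB induction (-0.36, adjusted p = 0.0469) but did not pass by DESeq2 (adjusted p = 0.0625). Within either strain, 0 of the 12 passed by edgeR or DESeq2, or had an unadjusted p under 0.05, after DSB induction. By edgeR 3.68% of all genes were higher and 2.65% lower there in *rad30Δ* cells, and 6.07% and 6.29% in WT cells. The 1 higher and 1 lower of these 12 between the strains after DSB induction are near the 11.6% and 11.8% of all genes. In arrest 1 was higher and 0 lower, against 4.71% and 6.10%.

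Of 11 genes of template switching and fork remodelling, *SGS1*, a helicase that takes apart recombination intermediates, had 56.1 ± 3.67 CPM in *rad30Δ* and 102 ± 11.8 CPM in WT cells after DSB induction, and 60.8 ± 4.76 and 81.3 ± 1.88 CPM in the same strains in arrest (SD, n = 3). Its log2 fold changes between the strains were -0.86 and -0.42 (adjusted p = 3.46e-05 and 0.00831), and it rose by 0.33 in WT cells after DSB induction (adjusted p = 0.0290). *SHU2*, a subunit of the Shu complex of recombination, had 13.9 ± 1.302 CPM in *rad30Δ* and 23.8 ± 1.496 CPM in WT cells after DSB induction (SD, n = 3, adjusted p = 0.000805). Of the 11, 0 were higher and 2 lower in *rad30Δ* than in WT cells after DSB induction, against 11.6% and 11.8% of all genes. DESeq2 called 1 higher and 2 lower. *TOP3* went the other way there, with a log2 fold change of 0.58 that did not pass by edgeR (adjusted p = 0.0659). In arrest 0 were higher and 1 lower, against 4.71% and 6.10% of all genes. In WT cells 1 rose after DSB induction, against 6.07%. Of 10 damage-inducible genes, 2 rose in *rad30Δ* and 3 in WT cells after DSB induction, against 3.68% and 6.07% of all genes. *RNR3*, a large subunit of ribonucleotide reductase, rose in both strains, with log2 fold changes of 0.57 in *rad30Δ* (adjusted p = 0.0124) and 0.81 in WT cells (adjusted p = 0.000832). *PLM2*, a probable transcription factor gene, did so with 0.47 (adjusted p = 0.0201) and 0.62 (adjusted p = 0.00290), and *HUG1*, an inhibitor of that reductase, rose in WT cells by 1.12 (adjusted p = 0.0360). *RAD54*, a recombination translocase, was lower in *rad30Δ* than in WT cells in both states, with log2 fold changes of -0.47 after DSB induction and -0.54 in arrest (adjusted p = 0.000264 and 0.000130). Between the strains after DSB induction 0 of the 10 were higher and 3 lower, against 11.6% and 11.8% of all genes. DESeq2 called 0 higher and 2 lower, and 1 was higher and 3 lower at an unadjusted p under 0.05. *RNR3* (-0.35, adjusted p = 0.0420, and 0.0585 by DESeq2) and *HUG1* (-0.93, adjusted p = 0.0473) were the others. *HUG1* was under 10 CPM in each group. It averaged 4.37 ± 0.348 CPM in *rad30Δ* and 8.39 ± 1.55 CPM in WT cells after DSB induction (SD, n = 3). In arrest it averaged 2.96 ± 0.96 CPM in *rad30Δ* and 3.82 ± 1.71 CPM in WT cells (SD, n = 3). In arrest 0 were higher and 1 lower (2 lower by DESeq2), against 4.71% and 6.10% of all genes.

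**Figure D4:**
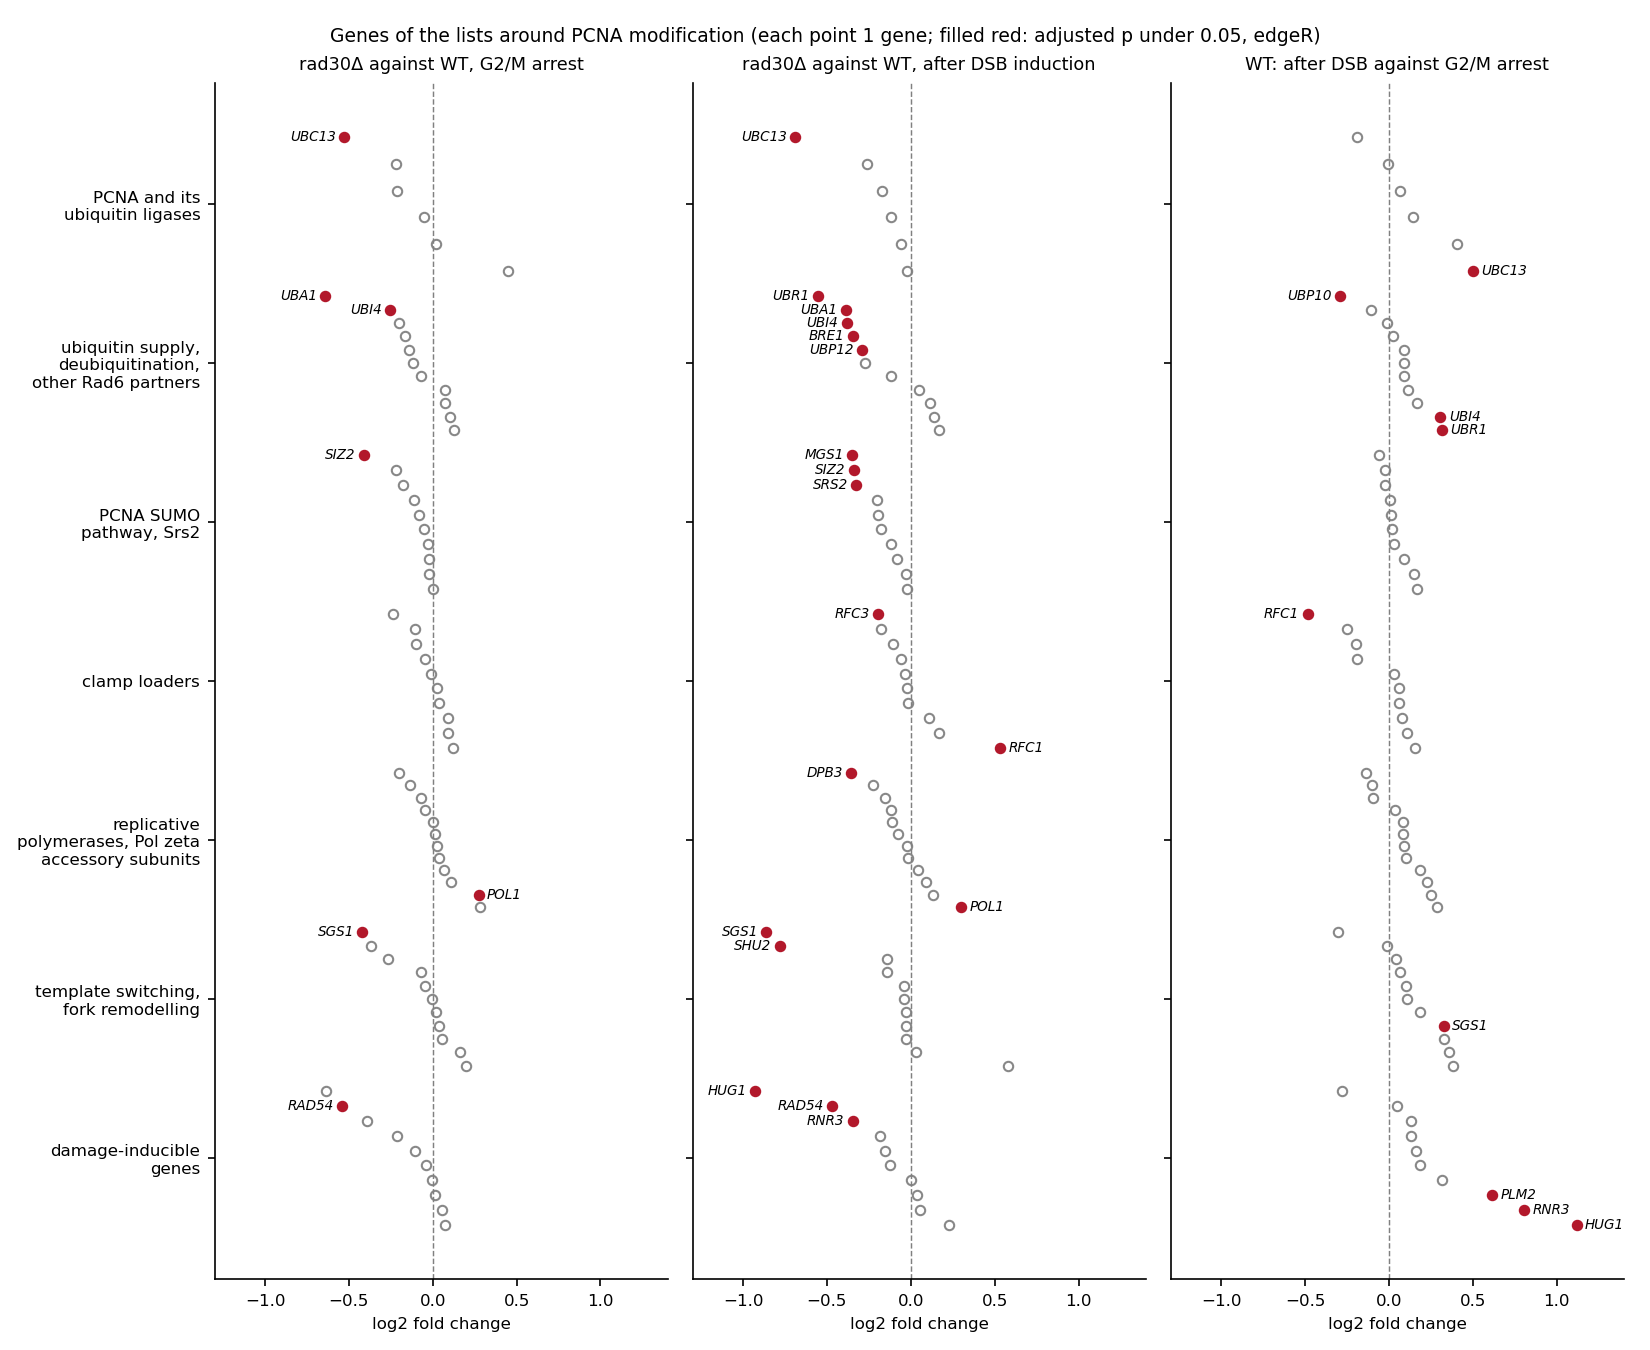
Log2 fold changes (horizontal axes) of genes in 7 lists around PCNA modification (vertical axis), in 3 comparisons. Each point is 1 gene and filled red points with names passed the test; *UBC13*, *UBI4* and *SGS1* are left of 0 between the strains in both states and right of 0 after DSB induction in WT cells.

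Markers of cell cycle stage were counted beside these genes. Of 8 G2/M genes 2 were lower and 0 higher in *rad30Δ* than in WT cells after DSB induction, where 11.8% of all genes were lower, and 1 was lower and 0 higher in arrest, where 6.10% were lower. DESeq2 gave the same counts, and 0 were higher at an unadjusted p under 0.05. After DSB induction 2 of the 8 fell in *rad30Δ* and 2 in WT cells, against 2.65% and 6.29% of all genes. *CLB1*, a mitotic cyclin, fell in both strains, with log2 fold changes of -0.45 in *rad30Δ* and -0.50 in WT cells (adjusted p = 0.00359 and 0.00142). Of 8 genes of G1 and S phase 1, *PCL1*, was lower in *rad30Δ* cells in both states (-0.51 and -0.50, adjusted p = 0.0170 and 0.0315), and 1, *CLN2*, rose by 0.31 in WT cells after DSB induction (adjusted p = 0.0358). Of all genes 11.8% and 6.10% were lower in the same strain comparisons, and 6.07% rose in WT cells. With 8 genes, counts of 1 are near these shares. The part of cell cycle stage in the values of *UBC13* was not tested. The 20 genes that adjoin the members on their chromosomes held 1 gene called by edgeR between the strains after DSB induction. Of all genes 11.6% were higher and 11.8% lower there. DESeq2 called 3 of the 20 higher and 1 lower, and 4 were higher and 2 lower at an unadjusted p under 0.05. In arrest 0 passed by edgeR or DESeq2, against 4.71% and 6.10% of all genes, with 2 higher and 2 lower at an unadjusted p under 0.05. After DSB induction edgeR called 1 of the 20 in *rad30Δ* and 3 in WT cells. Of all genes 3.68% were higher and 2.65% lower in *rad30Δ* cells, and 6.07% and 6.29% in WT cells. *NHP6B*, an HMG-box protein gene beside *POL30*, was the 1 that edgeR called between the strains, with a log2 fold change of -0.42 (adjusted p = 0.00457). *NHP6B* fell by 0.85 in *rad30Δ* (adjusted p = 4.37e-05) and by 0.36 in WT cells (adjusted p = 0.0170) after DSB induction, while *POL30* had changes of -0.21 and 0.41. None of the members overlaps another gene in the R64 annotation.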

How the data were processed

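RNA-seq of 12 samples was analysed, 3 in each of 4 groups. Per the study's methods and processing notes, the authors selected polyadenylated RNA for paired-end reads. Trimming was by cutadapt, alignment to sacCer3 by HISAT2, removal of duplicates by Picard's MarkDuplicates and counting by featureCounts. The deposited table holds their counts per gene, as whole numbers, and a deposited column gives gene length. For tool versions and strand settings, the sources used here give none. The deposited comparison tables (fold changes, p-values and mean FPKM from the authors' own DESeq2 and edgeR runs) were not used.

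Genes with 10 or more reads over all libraries (6490) were scaled by TMM and fitted over 12 libraries with edgeR 4.0.16 in R 4.3.3 (quasi-likelihood test, Benjamini-Hochberg adjustment over all genes tested, threshold 0.05). Standard errors were derived from the F statistic, and intervals are at 95%. Tables were made in Python 3.11.15. The script was tested on simulated data. Alternatives were DESeq2 1.42.0, RLE scaling, library totals, filterByExpr, no filter, the compared libraries fitted alone, a replicate block and leaving out each library. Names and positions came from RefSeq's R64 annotation, to which 6044 of the 7123 genes were matched. Lengths are coding lengths.

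The members and lists were chosen with earlier results of these data known. A gene of the damage-inducible list is not reported here. Named genes were the members, up to 4 genes of each other list with the smallest p in a comparison, genes that adjoin a member, and the 2 genes most like a member that passed. Of marker lists the text gives a part of these.

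Equal replicate numbers before and after DSB induction had residual correlations of 0.19, 0.15 and 0.34 in *rad30Δ* and 0.04, 0.10 and 0.00 in WT cells. Only the *rad30Δ* libraries thus met the limit of 0.1 for pairing. Per the study's methods, arrested cells were collected both before and after the induction, but whether equal numbers share a culture is not stated. The reported tests are unpaired in both strains. In edgeR with the replicate number as a block, *UBC13* passed after DSB induction in *rad30Δ* cells (0.33, adjusted p = 0.0312) and in WT cells (0.50, adjusted p = 0.00275). Across strains the correlations were -0.01 to 0.16.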

Additional observations from a re-analysis of the deposited data

How the results depend on the processing

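Of 865 refitted log2 fold changes of members, under 19 alternatives, 17 passed the threshold where the reported value did not, 1 was lost and 37 changed sign with neither value past it. The other 810 kept their direction and side, and no value past the threshold changed sign.

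Members called between the arrested strains numbered 2 with library totals, with the compared libraries alone and with DESeq2, in place of 1, and 1 to 2 when a library was left out. *POL30* was the added gene. After DSB induction the strains differed in 1 member, and in 1 to 2 when a library was left out, with *POL30* added without *rad30Δ* replicate 3 and *RAD18* (-0.33, adjusted p = 0.0342) without replicate 2. In WT cells after DSB induction the count was 1, against 3 with the compared libraries alone, where *POL30* (0.40, adjusted p = 0.0116) and *RAD6* (-0.20, adjusted p = 0.0297) were added, and 0 to 2 when a library was left out. In *rad30Δ* cells it was 0, against 1 with DESeq2, 1 with the replicate block and 0 to 2 when a library was left out, with *MMS2* (0.33, adjusted p = 0.0439) added without replicate 2. In the interaction it was 0, and 0 to 1 when a library was left out. The replicate block changed no other call. Between the arrested strains, 275 of all genes tested were higher and 354 lower with library totals, against 306 and 396 as reported. For DESeq2, the compared libraries alone, the replicate block and each library left out, the share of all genes that passed was not counted. The added calls thus have no background and are not results about the members. The causes of these changes in count were not tested.

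Library totals moved the median log2 fold change of all genes to between -0.10 and -0.02 (0.00 as reported), left 21 of 34 neighbours in level apart in place of 20, and moved 4 of 38 group levels by more than their SD. They also lowered the share of higher genes among all calls, to 39.0% against 49.6% between the strains after DSB induction, to 28.4% against 58.2% in *rad30Δ* cells and to 29.7% against 49.1% in WT cells after DSB induction. Counts of 124 to 1247 reads per library limit the precision of single members, and *POL30*, *REV3* and *REV7* had the fewest.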
